A study of Mus musculus with 28 samples.

Results

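The 7 genes described here, Sst, Npy, Cort, Vip, Cck, Crh and Crhbp, encode neuropeptides of the cerebral cortex or, in the case of Crhbp, a protein that binds one of them. They were picked by gene symbol from the deposited tables of estimated counts, and all 7 were present among the 15097 genes of the social stress cohort, the 15054 of the diabetes cohort and the 14888 shared by both. Each of the 28 libraries came from the dissected frontal cortex of a separate male C57Bl/6 mouse. In the chronic social stress group (CSS, n = 8) mice were isolated for 7 weeks, with social confrontations 2 times a day over the last 20 days, and were set against their own controls (n = 8) at 21 weeks of age. In the type 2 diabetes group (T2D, n = 6) mice received 75 mg/kg of streptozotocin, a toxin of pancreatic beta cells, and a high-fat diet (43.2% of energy) for 21 weeks, and were set against their own controls (n = 6) at 30 or 31 weeks. The toxin and the diet came together, so their shares in any difference cannot be told apart. The labels describe the control mice only by that word.

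Neuropeptides are cut from larger precursors, stored in dense core vesicles and released when neurons fire strongly. In the cortex they mark classes of inhibitory interneurons that make GABA. Somatostatin (Sst) marks cells that inhibit the distal dendrites of pyramidal neurons, many of which also make neuropeptide Y (Npy), and cortistatin (Cort) is a close relative of somatostatin made by some interneurons. Vasoactive intestinal peptide (Vip) marks cells that mainly inhibit other interneurons, among them the Sst cells. Cholecystokinin (Cck) is made by a class of basket cells and also, as RNA, by many pyramidal neurons. Corticotropin-releasing hormone (Crh), known for driving the hormonal stress response from the hypothalamus, is made in the cortex by a subset of interneurons, and Crhbp encodes a secreted protein that binds it and limits its action.

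Sst and Vip are textbook targets of cAMP signalling through the cAMP response element, so the promoters of Sst and Npy, which changed in CSS, and of Vip and Cck, whose levels varied together most closely, are shown with matches to that element. The windows run from 250 bases before to 50 bases after the start of the gene, from RefSeq on GRCm38.p6, and were found for 6 of the 7 genes, with none for Crh. They lie at chr16:23890795-23891094 on the minus strand (Sst), chr6:49822460-49822759 on the plus strand (Npy), chr10:5638968-5639267 on the plus strand (Vip) and chr9:121495645-121495944 on the minus strand (Cck). Capitals mark the full element TGACGTCA or, where there was none, the first match to its shorter form TGACG, which reads CGTCA on the opposite strand.
Sst: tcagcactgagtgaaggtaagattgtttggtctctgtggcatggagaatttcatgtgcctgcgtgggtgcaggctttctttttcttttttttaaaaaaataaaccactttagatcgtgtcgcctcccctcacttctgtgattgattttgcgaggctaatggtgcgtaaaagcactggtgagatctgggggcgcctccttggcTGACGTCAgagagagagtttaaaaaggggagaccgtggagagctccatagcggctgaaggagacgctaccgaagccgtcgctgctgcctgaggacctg
Npy: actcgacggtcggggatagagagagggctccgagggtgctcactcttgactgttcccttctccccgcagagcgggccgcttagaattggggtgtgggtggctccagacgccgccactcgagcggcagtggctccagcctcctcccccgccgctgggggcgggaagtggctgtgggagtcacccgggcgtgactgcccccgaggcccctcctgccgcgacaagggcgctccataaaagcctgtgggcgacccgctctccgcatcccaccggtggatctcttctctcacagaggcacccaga
Vip: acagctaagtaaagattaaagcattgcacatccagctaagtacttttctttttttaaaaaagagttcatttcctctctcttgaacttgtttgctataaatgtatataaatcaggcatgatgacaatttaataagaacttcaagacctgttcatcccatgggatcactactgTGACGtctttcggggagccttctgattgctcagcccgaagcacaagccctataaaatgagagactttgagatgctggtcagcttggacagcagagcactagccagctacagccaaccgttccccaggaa
Cck: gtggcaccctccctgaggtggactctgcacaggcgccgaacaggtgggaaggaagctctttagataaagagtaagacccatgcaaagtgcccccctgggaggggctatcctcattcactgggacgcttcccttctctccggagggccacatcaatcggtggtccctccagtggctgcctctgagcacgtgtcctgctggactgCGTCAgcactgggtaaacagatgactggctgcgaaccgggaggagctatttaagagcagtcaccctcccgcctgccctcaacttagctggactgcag
Only the Sst window of the 6 held the full element, 48 bases before the start. The full element was found in 1.79% and the shorter form, which is contained in it, in 20.8% of 32851 RefSeq promoter windows of the same length, searched on both strands. The shorter form stood 79 bases before the start of Vip and 47 before that of Cck. It was also found 18 bases before the start of Cort and 64 before that of Crhbp. Neither form was in the Npy window. A match describes the letters and was not measured as a bound site here.

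Library totals lay between 15.2 and 21.9 M estimated counts in CSS, against 14.3 and 37.5 M in its controls, and between 14.3 and 22.7 M in T2D, against 12.1 and 21.6 M in its controls. RNA integrity, on its usual scale, was 9.0 to 10.0 in CSS (mean 9.6) and 9.3 to 10.0 in its controls (mean 9.5). It was 8.7 to 9.4 in T2D (mean 9.05) and 8.5 to 9.8 in its controls (mean 9.37). All 15 markers of cortical excitatory neurons were measured, with a summed level of 1952 to 2844 CPM (counts per M of the scaled library) in CSS, 1990 to 2675 CPM in its controls, 1702 to 2671 CPM in T2D and 2042 to 2528 CPM in its controls. All 14 markers of striatal projection neurons were measured too, at 1243 to 1927 CPM in CSS, 1335 to 2740 CPM in its controls, 485 to 2466 CPM in T2D and 587 to 2225 CPM in its controls. The summed striatal level thus varied between libraries of the same tissue label, most in the T2D cohort.

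Per kilobase of annotated exon, a rough scale for comparing genes, the 7 fell into a high and a low set. Sst averaged 88.1 ± 9.17 CPM per kb, Cck 84.1 ± 20.2 and Npy 54.6 ± 11.2 in CSS, against 108 ± 11.4, 90.6 ± 12.3 and 74.9 ± 8.39 in its controls (SD, n = 8 each). Vip came next at 6.99 ± 1.64 CPM per kb in CSS and 6.69 ± 1.26 in its controls. Crhbp, Cort and Crh followed, and Crh was lowest at 2.11 ± 0.592 CPM per kb in CSS and 2.24 ± 0.373 in its controls. The T2D mice had the same order. Their controls had it too except that Cck stood above Sst, at 109 ± 24.5 against 90.7 ± 7.16 CPM per kb (SD, n = 6 each). In each of the 4 groups the library ranges of neighbouring genes in the order overlapped, except between Npy and Vip in all groups and between Cort and Crh in the T2D controls. The gap between Npy and Vip depends on the exon lengths used, 566 bases for Npy and 3402 for Vip. In CPM alone their ranges overlapped in CSS (22.1 to 42.6 and 14.6 to 31.0), T2D and the T2D controls, but not in the CSS controls. Whether the counts were already scaled for length is not stated. Low level limits Cort and Crh, which had 21.0 to 118 and 30.7 to 133.6 estimated counts per library over both cohorts.

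**Figure D1:**
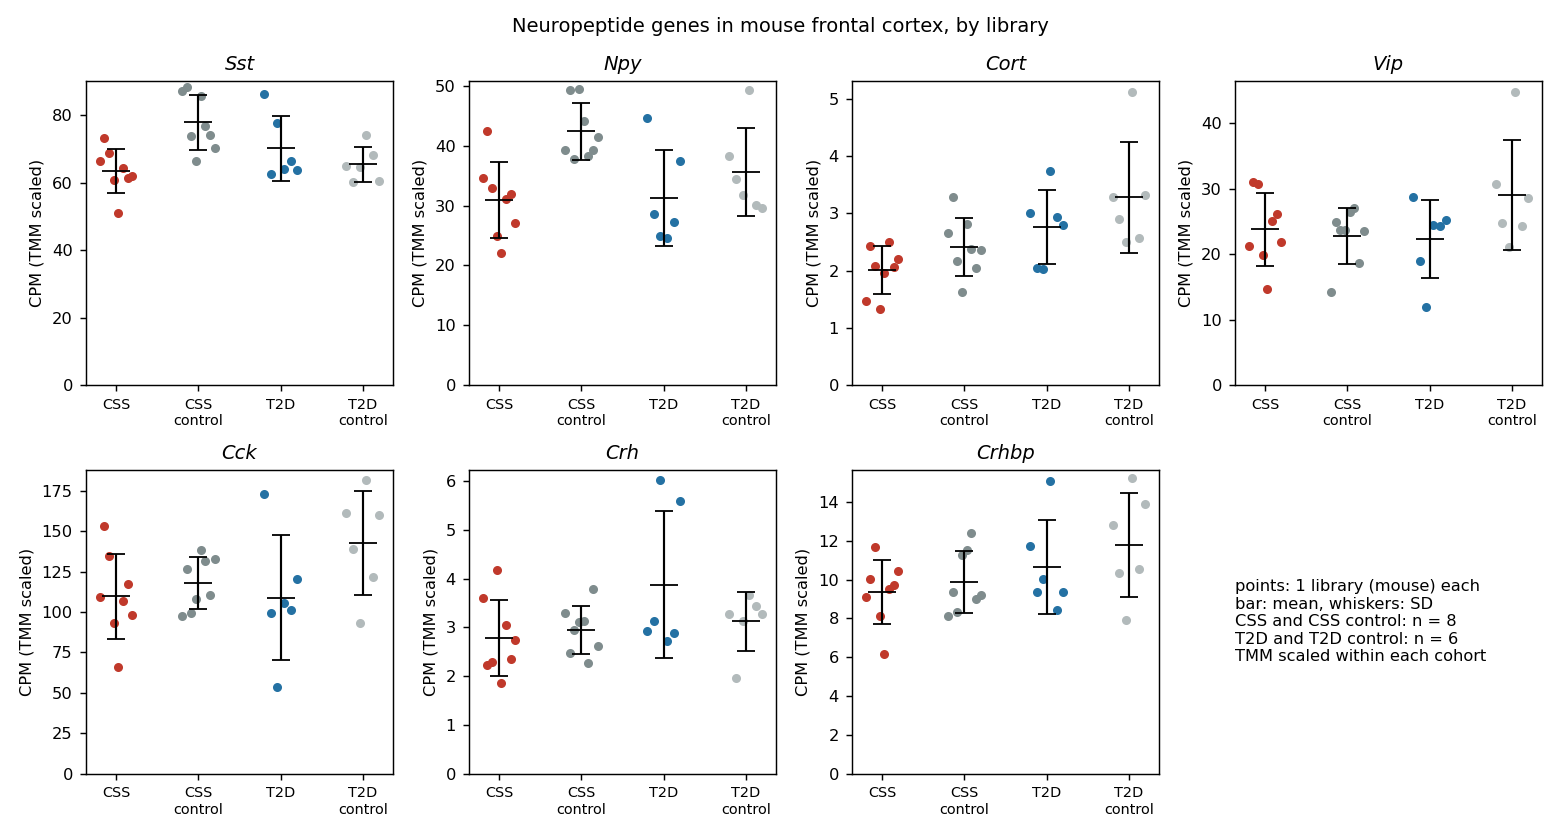
Level of each of the 7 genes in CPM, scaled within each cohort, in every library (points) with the group mean (bar) and SD (whiskers), for CSS and its controls (n = 8 each) and T2D and its controls (n = 6 each). For Npy, 7 of the 8 CSS libraries lie below all of their controls, while the ranges of a group and its controls overlap for every gene.

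Sst and Npy were lower in CSS. Npy (ENSMUSG00000029819, chr6:49822710-49829507, GRCm38) fell by 0.46 ± 0.11 log2 units (SE) to 30.9 ± 6.36 CPM in CSS, against 42.4 ± 4.75 CPM in controls, and Sst (ENSMUSG00000004366, chr16:23889573-23890958) fell by 0.30 ± 0.07 to 63.5 ± 6.61 CPM in CSS, against 77.9 ± 8.25 CPM in controls (SD, n = 8 each). The adjusted p was 0.0243 for Npy and 0.0279 for Sst (edgeR's quasi-likelihood test, Benjamini-Hochberg over all genes). So 2 of the 7 genes passed, both lower, while 4.52% of all 15097 genes passed in either direction and 2.42% were lower. The 7 genes were chosen with earlier results of these data known, so that comparison is a description. In bulk tissue, fewer cells of a type and less RNA per cell cannot be told apart.

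For Npy the lowest, median and highest CSS libraries had 22.1, 31.5 and 42.6 CPM, against 37.8, 40.5 and 49.5 CPM in controls. Thus 7 of 8 CSS libraries were below every control, and CSS 2 alone stood within the control range. The 95% interval of the log2 change ran from −0.68 to −0.23. For Sst the lowest, median and highest CSS libraries had 50.9, 63.2 and 73.3 CPM, against 66.5, 75.6 and 88.3 CPM in controls. All 8 CSS libraries were below the control mean and 5 were below every control, but the ranges overlapped. The interval for Sst ran from −0.45 to −0.15.

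CSS 5 was the lowest CSS library for Sst and Npy, and also for Vip, Cck, Crh and Crhbp. Without it Npy was at −0.40 (adjusted p = 0.0364) and Sst at −0.26 (adjusted p = 0.0408, edgeR). The calls ended without some other libraries. Calls over all genes also fell, from 683 to 222 without CSS 6 and 251 without control 2. They were 276 without control 1 and 414 without control 5. Without CSS 6, Npy was at −0.46 (adjusted p = 0.0505) and Sst at −0.30 (adjusted p = 0.0567), the same folds as with it to these digits. Without control 2, Npy was at −0.43 (adjusted p = 0.0517) and Sst at −0.27 (adjusted p = 0.0598). Sst also missed the threshold without control 1 (−0.27, adjusted p = 0.0612) or control 5 (−0.28, adjusted p = 0.0538, edgeR).

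The sample titles of this cohort carry a code number of 1 to 4 whose meaning is not given in the sources used here, and it was uneven between the groups. Number 1 had 1 CSS and 4 control mice, number 2 had 1 and 3, number 3 had 3 and 1, and number 4 had 3 CSS mice and no control. With the number as a factor no member passed, at −0.30 for Npy (adjusted p = 0.321) and −0.19 for Sst (adjusted p = 0.372, edgeR), and 2 genes passed of all genes. Within numbers 1, 2 and 3 the CSS minus control difference in mean log2 CPM was −0.34, 0.07 and −0.66 for Npy and −0.24, −0.11 and −0.24 for Sst, with a lone library on 1 side each time. Over 27 alternative fits the adjusted p of Npy lay between 0.00204 and 0.321 and that of Sst between 0.00384 and 0.372, with all fold changes negative.

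Some markers of other cells differed between these groups as well, beside 4.52% of all 15097 genes called and 2.42% called lower. Of all genes 7741 had a positive log2 fold change and 7356 a negative one. The summed level of 12 microglial markers was 204 to 396 CPM in CSS and 379 to 435 CPM in controls, and 5 of them (C1qa, C1qb, C1qc, Csf1r and Ctss) were lower. That of 10 astrocyte markers was 4283 to 5132 CPM in CSS and 3855 to 4471 CPM in controls, and 2 of them (Fgfr3 and Slc1a2) were higher. Fibroblast markers summed to 275 to 576 CPM in CSS and 207 to 495 CPM in controls, with all 10 at a positive log2 fold change and 1 of them, Col1a1, higher. Blood genes summed to 133.2 to 574.9 CPM in CSS and 101.9 to 231.1 CPM in controls, with all 5 positive (median 0.82) and none past the test over all genes. All 8 olfactory bulb markers were negative (median −0.26) and none passed, at 365.5 to 509.6 CPM in CSS and 351 to 766 CPM in controls. Of 15 excitatory neuron markers 1, Rasgrf2, was higher (log2 0.22, adjusted p = 0.0331, edgeR), with a list median of −0.0029. Of 10 oligodendrocyte markers 9 were negative (median −0.06) and none passed. The part of these markers in the change of Npy and Sst was not tested. Of 14 striatal markers 13 were negative (median −0.24), and 5 of 6 markers of thalamus and hypothalamus were positive (median 0.27, with a sum of 153 to 193 CPM in CSS and 145 to 197 CPM in controls). None of these markers passed. The hypothalamic genes Avp, Oxt, Hcrt, Agrp, Pomc, Gal, Hdc and Nkx2-1 of that list were not among the genes tested. With striatal and thalamic marker scores in the fit, Npy was at −0.39 (adjusted p = 0.0430) and Sst at −0.25 (adjusted p = 0.0615, edgeR). That fit called 255 of all genes, beside 683 without the scores.

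**Figure D2:**
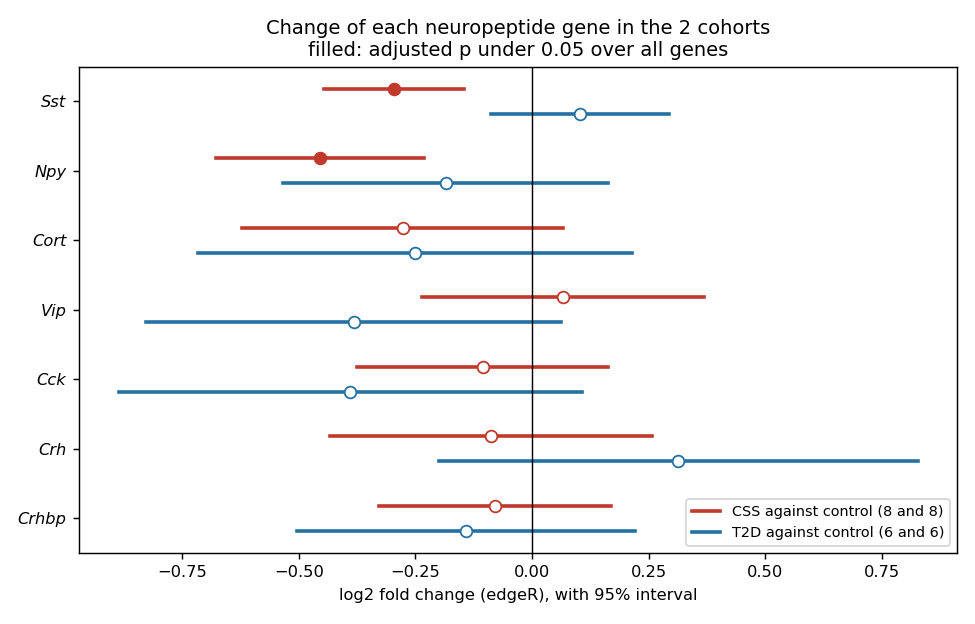
Log2 fold change of each gene from edgeR with its 95% interval, in CSS (red, n = 8 against 8) and in T2D (blue, n = 6 against 6), each against its own controls. Filled points, Npy at −0.46 and Sst at −0.30 in CSS, passed an adjusted p of 0.05 over all genes, and all other intervals include 0.

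The other 5 genes did not pass in CSS. Cort (ENSMUSG00000028971, chr4:149125034-149126763) changed by −0.28 ± 0.16 log2 units (adjusted p = 0.344), near the change of Sst but with a wider interval of −0.62 to 0.07, and averaged 2.01 ± 0.418 CPM in CSS and 2.42 ± 0.509 CPM in controls (SD, n = 8 each). The lowest, median and highest values were 1.33, 2.07 and 2.50 CPM in CSS, against 1.62, 2.37 and 3.28 CPM in controls. Vip (ENSMUSG00000019772, chr10:5639218-5647617) averaged 23.8 ± 5.57 CPM in CSS and 22.8 ± 4.30 CPM in controls, with 4 CSS libraries on each side of the control mean and a change of 0.07 (interval −0.24 to 0.37, adjusted p = 0.833).

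Cck (ENSMUSG00000032532, chr9:121489824-121495694) averaged 110 ± 26.3 CPM in CSS and 118 ± 16.1 CPM in controls, a change of −0.11 (interval −0.38 to 0.16, adjusted p = 0.677). Its CSS libraries spread from 66.2 to 153 CPM, on both sides of the control range of 97.7 to 139 CPM. Crh (ENSMUSG00000049796, chr3:19693401-19695396) averaged 2.79 ± 0.781 CPM in CSS and 2.95 ± 0.493 CPM in controls, a change of −0.09 (interval −0.43 to 0.26, adjusted p = 0.802). Crhbp (ENSMUSG00000021680, chr13:95431371-95444924) averaged 9.35 ± 1.65 CPM in CSS and 9.90 ± 1.60 CPM in controls, a change of −0.08 (interval −0.33 to 0.17, adjusted p = 0.745). Without CSS 5 Cck was at −0.03, Crh at −0.03 and Crhbp at −0.02. For each of the 7 genes the ranges of the groups overlapped, while 0.609% of all genes had ranges that did not.

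No neuropeptide gene passed in T2D, where edgeR called 0 of 15054 genes (0%), with 879 (5.84%) at an unadjusted p under 0.05, and limma-voom called 0 and DESeq2 called 4. The lowest estimates were those of Cck and Vip. Cck averaged 109 ± 38.7 CPM in T2D and 143 ± 31.9 CPM in controls (SD, n = 6 each), a log2 fold change of −0.39 ± 0.23 (interval −0.89 to 0.11, adjusted p = 0.838). Its lowest, median and highest values were 53.5, 104 and 173 CPM in T2D, against 93.1, 149.5 and 181.6 CPM in controls, so that 5 of 6 T2D libraries lay below the control mean and 1 lay below every control.

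Vip averaged 22.3 ± 5.94 CPM in T2D and 29.0 ± 8.43 CPM in controls, a change of −0.38 ± 0.21 (interval −0.83 to 0.06, adjusted p = 0.825). The lowest, median and highest values were 11.95, 24.4 and 28.7 CPM in T2D, against 21.1, 26.7 and 44.8 CPM in controls. All 6 T2D libraries were below the control mean, and 2 were below every control. T2D 3 was lowest for both Vip and Cck. Without it Vip was at −0.25 and Cck at −0.25, and without T2D 1, the highest T2D library for both, Vip was at −0.47 and Cck at −0.57, with an adjusted p of 0.325 or more each time (edgeR).

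Sst and Npy had estimates of opposite sign in T2D, neither past the test. Sst averaged 70.2 ± 9.64 CPM in T2D and 65.4 ± 5.16 CPM in controls, a change of 0.10 (interval −0.09 to 0.29, adjusted p = 0.867), with 2 T2D libraries above every control. Npy averaged 31.2 ± 8.05 CPM in T2D and 35.6 ± 7.42 CPM in controls, a change of −0.19 (interval −0.53 to 0.16, adjusted p = 0.868), with 4 of 6 T2D libraries below every control and T2D 1 at 44.6 CPM. Without T2D 1, Sst was at 0.03 and Npy at −0.32, and without control 4 Npy was at −0.07. Cort was at −0.25 (interval −0.72 to 0.21, adjusted p = 0.867) and averaged 2.76 ± 0.648 CPM in T2D and 3.28 ± 0.968 CPM in controls.

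Crh averaged 3.88 ± 1.50 CPM in T2D and 3.13 ± 0.603 CPM in controls, a change of 0.31 (interval −0.20 to 0.83, adjusted p = 0.855). T2D 3 and T2D 6, at 6.02 and 5.58 CPM, were above every control, and the other 4 T2D libraries lay between 2.72 and 3.14 CPM. Without T2D 3 the estimate was 0.14. Crhbp averaged 10.7 ± 2.42 CPM in T2D and 11.8 ± 2.67 CPM in controls, a change of −0.14 (interval −0.50 to 0.22, adjusted p = 0.910). No gene of the 7 had groups that did not overlap, which 0.146% of all genes had.

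No marker of another cell type or region passed in T2D, while the estimates of several lists had one sign. All 14 striatal markers had a positive log2 fold change (median 0.54, none at an unadjusted p under 0.05), beside a median of 0.00 over all genes. All 8 olfactory bulb markers were positive too (median 0.66, 5 at an unadjusted p under 0.05), with a summed level of 249.7 to 739 CPM in T2D and 259 to 395 CPM in controls. Of 7 markers of thalamus and hypothalamus 6 were positive (median 0.34). All 12 microglial markers were negative (median −0.39, 4 at an unadjusted p under 0.05), with a sum of 194 to 376 CPM in T2D and 228.5 to 382.1 CPM in controls. The part of the olfactory bulb and microglial markers in the estimates above was not tested. With striatal and thalamic scores in the fit, Cck was at −0.08, Vip at −0.13, Cort at −0.06, Npy at −0.08 and Crhbp at 0.11, the last with its sign changed. Sst was at 0.14 and Crh at 0.35 in the same fit, beside 0.10 and 0.31 without the scores. None passed in that fit either. With RNA integrity as a covariate instead, Cck was at −0.30, Vip at −0.40, Cort at −0.27, Npy at −0.20 and Crhbp at −0.01. Sst was then at 0.13 and Crh at 0.40, and again no member passed.

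The difference between the cohorts' changes was tested directly over all 28 libraries, as the CSS change minus the T2D change. None of the 7 genes passed, beside 12 of 14888 genes (0.0806%, with 0.0336% negative) by edgeR, 130 by DESeq2 and 0 by limma-voom. Sst had the largest difference relative to its error, −0.41 ± 0.12 (interval −0.65 to −0.16, unadjusted p = 0.00183, adjusted p = 0.154). Its adjusted p lay between 0.0624 and 0.282 over 38 alternative fits. Vip had a difference of 0.44 ± 0.26 (adjusted p = 0.5002), Crh of −0.41 ± 0.29 (adjusted p = 0.582), Npy of −0.28 ± 0.20 (adjusted p = 0.592) and Cck of 0.28 ± 0.27 (adjusted p = 0.712). For Cort and Crhbp the difference was −0.03 ± 0.26 and 0.06 ± 0.21. With striatal and thalamic scores in the fit the difference was 0.0868 for Vip (adjusted p = 0.929), −0.0904 for Cck, −0.27 for Crhbp, −0.32 for Cort, −0.24 for Crh, −0.39 for Npy and −0.45 for Sst, and none passed.

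Each peptide gene was also set against the summed level of Gad1, Gad2 and Slc32a1, the genes of GABA synthesis and vesicular transport that inhibitory neurons share. None of these 3 genes passed in CSS, with Gad1 at 0.06 (adjusted p = 0.714), Gad2 at −0.02 (0.957) and Slc32a1 at −0.08 (0.642), or in T2D, at 0.31, 0.36 and 0.36 (adjusted p = 0.825, 0.867 and 0.854). On a log2 scale the ratio of Npy was −4.38 ± 0.495 in CSS and −3.90 ± 0.254 in controls, a difference of −0.48 (two-sided exact permutation p = 0.0272, adjusted p = 0.352 over 14 tests), and 7 of 8 CSS libraries were below the control mean. The ratio of Sst was −3.32 ± 0.351 in CSS and −3.02 ± 0.289 in controls, a difference of −0.30 (exact permutation p = 0.0789, adjusted p = 0.352), again with 7 of 8 below. None of the 14 ratios passed. With Gad1 alone as the scale Npy in CSS passed, at −0.54 (adjusted p = 0.0435), and with the summed interneuron list it passed at −0.51 (adjusted p = 0.0283, exact permutation test). Both scales share genes with the main scale, as the interneuron list also holds Gad1, Gad2 and Slc32a1. The share of all genes that would pass such a ratio test was not measured.

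In T2D the largest differences in this ratio were those of Cck, −0.77 (exact permutation p = 0.117, adjusted p = 0.352), and Vip, −0.73 (exact permutation p = 0.126, adjusted p = 0.352), each lower than the control mean in 5 of 6 T2D libraries. Striatal projection neurons also make GABA, and the score of the 3 scaling genes correlated with the striatal score across the 28 libraries (r = 0.78). That r was 0.37 in the CSS cohort and 0.87 in the T2D cohort. With the score of thalamus and hypothalamus r was 0.70 in the CSS cohort and −0.01 in the T2D cohort. With that of excitatory neurons it was −0.70 and −0.36. The part of striatal RNA in these ratios was not tested.

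Genes that act with the peptides were counted from lists. Of 12 receptor genes for these peptides and the related PACAP, none passed in CSS, the smallest p being those of the PACAP receptor gene Adcyap1r1 (log2 0.23, adjusted p = 0.126) and the somatostatin receptor gene Sstr2 (0.22, adjusted p = 0.353). Their median change was 0.03, beside 0.01 over all genes. In T2D none of 12 passed either, and Cckbr, the main Cck receptor of the brain, was at −0.40 and Sstr2 at −0.42 (adjusted p = 0.825 for both).

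Of 17 genes that cut peptide precursors or build and release dense core vesicles, none passed in CSS, and the median was −0.08. Cadps, which primes these vesicles for release, was at 0.15 (adjusted p = 0.0571) and Cpe, the carboxypeptidase that trims peptides, at −0.15 (adjusted p = 0.0608, edgeR). Both passed with limma-voom and DESeq2, which called 679 and 1313 of all 15097 genes, beside 683 by edgeR. In T2D none of 17 passed, with the convertase gene Pcsk1 at −0.45 and the granule gene Scg3 at −0.19 (adjusted p = 0.825 for both).

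Of 11 further peptide genes, 1 fell in CSS, Nucb2, the precursor of nesfatin-1, by 0.31 ± 0.08 (adjusted p = 0.0429, edgeR), beside 4.52% of all genes called and 2.42% lower, and the list had a median of −0.08. The call was lost in 11 of the 16 fits that left out 1 library, all but those without CSS 1, CSS 7 or control 5, 6 or 8. It was also lost with the replicate block, RNA integrity, the striatal and thalamic scores or the title code number in the fit. Penk, the enkephalin precursor, which striatal neurons express strongly, was at −0.42 (adjusted p = 0.188). In T2D none of 12 passed, Trh, the thyrotropin-releasing hormone gene, being at 1.50 and Nmb, neuromedin B, at 0.89 (adjusted p = 0.825 for both).

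Of 32 interneuron markers other than these peptides, none passed in either cohort. Their median was −0.02 in CSS and 0.23 in T2D, beside all-gene medians of 0.01 and 0.00. In CSS the NMDA receptor subunit gene Grin3a was at 0.22 (adjusted p = 0.218). In T2D Reln, which encodes reelin, was at 0.40 and Grin3a at 0.25 (adjusted p = 0.825 for both).

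Of 18 genes that neurons transcribe upon activity, none passed in CSS, though 17 had a positive log2 fold change, with a median of 0.27. Nr4a3, a nuclear receptor, was at 0.68 (adjusted p = 0.0575) and Homer1, a synaptic scaffold gene, at 0.34 (adjusted p = 0.0782, edgeR). DESeq2 called both. In T2D none passed and 16 of 18 were negative, with a median of −0.29. The growth factor gene Bdnf was at −0.57 and Nr4a2 at 0.51 (adjusted p = 0.825 for both).

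Across the mice of one group, several of the 7 genes varied together. Pearson correlations were taken over 28 libraries between deviations of log2(CPM + 0.5) from the mean of each library's own group, tested by 100000 permutations within groups and adjusted over 21 pairs. A total of 8 pairs passed, all positive. The share of passing pairs among other genes was not measured. Vip and Cck were the closest pair, at r = 0.88 and Spearman's rho = 0.86 (both permutation p = 1e-05, the smallest that these permutations can give, adjusted p = 0.00021), with r = 0.80 without the 2 libraries farthest on Vip. Their r was 0.86 in the 16 libraries of the CSS cohort and 0.90 in the 12 of the T2D cohort.

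Npy followed Cck (r = 0.74, rho = 0.69, permutation p = 9e-05 and 0.00036, adjusted p = 0.000945 and 0.00336) and Vip (r = 0.68, rho = 0.61, permutation p = 0.00036 and 0.00205, adjusted p = 0.00252 and 0.00717). Without the 2 libraries farthest on Npy, r was 0.66 with Cck and 0.59 with Vip. Sst and Npy, which changed in CSS, had r = 0.55 (permutation p = 0.00559, adjusted p = 0.0168) but rho = 0.40 (permutation p = 0.0499, adjusted p = 0.105). That r was 0.35 without T2D 1 and CSS 5, the 2 libraries farthest on Sst, and was not tested there. It was 0.58 in the CSS cohort and 0.52 in the T2D cohort (permutation adjusted p = 0.061 and 0.252).

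Vip with Crhbp (r = 0.66, rho = 0.63), Cck with Crhbp (r = 0.61, rho = 0.65), Vip with Cort (r = 0.58, rho = 0.63) and Cort with Cck (r = 0.52, rho = 0.55) made up the rest of the 8, with a permutation adjusted p for r of 0.00273, 0.00869, 0.0111 and 0.0213. Without the 2 farthest libraries these r were 0.67, 0.59, 0.60 and 0.50. Both pairs with Cort differed between cohorts in size, at r = 0.27 in the CSS cohort and 0.87 in the T2D cohort for Vip with Cort (permutation adjusted p = 0.479 and 0.00724), and at 0.34 and 0.66 for Cort with Cck (permutation adjusted p = 0.340 and 0.071), differences that were not tested. Crh was in no passing pair, and its r with the other 6 genes lay between −0.33 and 0.17. The CSS cohort alone had 6 passing pairs and the T2D cohort alone had 2. Among the 6 was Sst with Cck (r = 0.64, permutation adjusted p = 0.0386), which was not among the 8. Its r was 0.37 over 28 libraries and 0.14 in the T2D cohort.

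**Figure D3:**
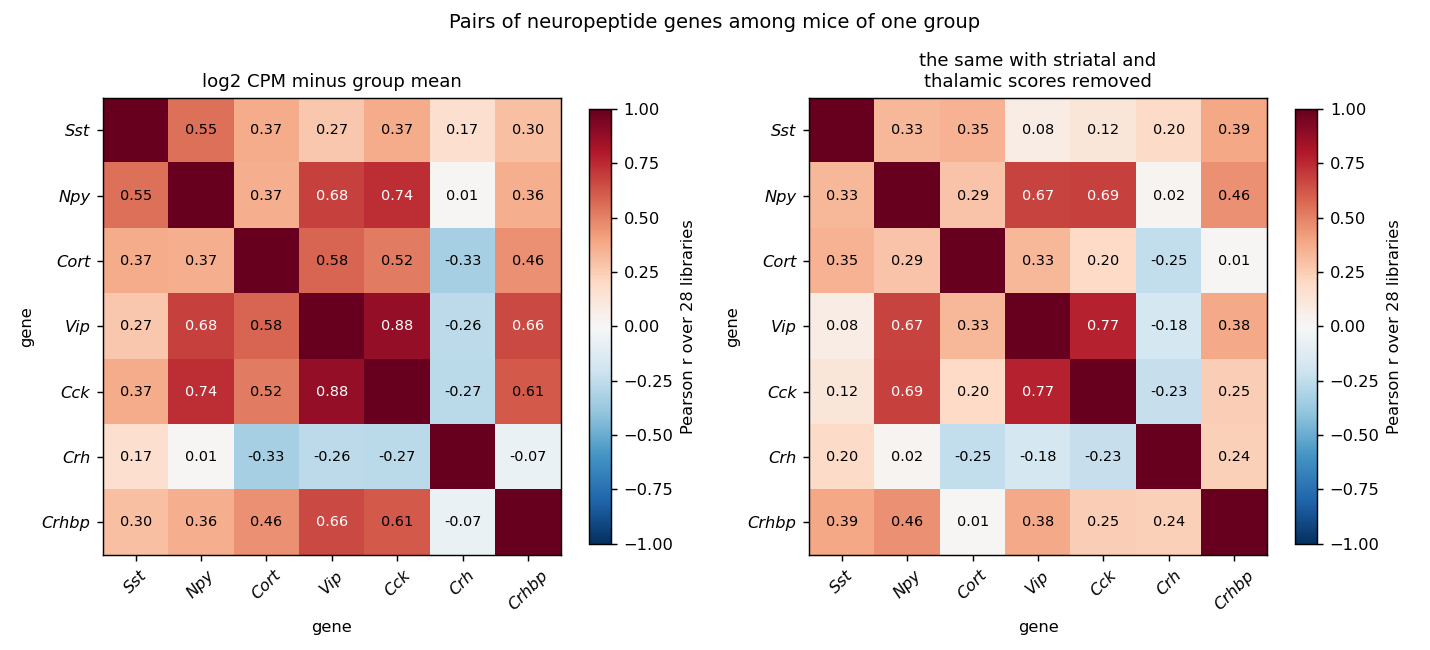
Pearson r between each pair of the 7 genes over 28 libraries, from log2 levels minus the group mean (left) and from the same values after striatal and thalamic marker scores were regressed out (right). Vip and Cck stay the closest pair, at 0.88 and 0.77, and the r of Crh with the other genes lie between −0.33 and 0.17 on the left.

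The levels also varied with marker scores of the tissue. Across the 28 libraries, whose depth and striatal RNA differed as given above, and with both values read from the same library, Cck correlated at 0.78 with the score of excitatory neurons, Vip at 0.65 and Npy at 0.64, and Crh at −0.46. Crhbp correlated at −0.73 with the striatal score. Npy correlated at −0.68, Cck at −0.63 and Sst at −0.50 with the score of thalamus and hypothalamus. This score held Tcf7l2, Lef1, Plekhg1, Rora, Prkcd and Calb2, the last also on the interneuron list. None of Avp, Oxt, Hcrt, Agrp, Pomc, Gal, Hdc and Nkx2-1 was in it. With the striatal and thalamic scores regressed out, a choice made after seeing the data, 3 of the 21 pairs passed: Npy with Cck (r = 0.69, permutation adjusted p = 0.00021), Vip with Cck (r = 0.77, adjusted p = 0.00147) and Npy with Vip (r = 0.67, adjusted p = 0.0021). These 3 were among the 8. The score of excitatory neurons, with which Cck, Vip and Npy correlated as given above, was not removed.

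**Figure D4:**
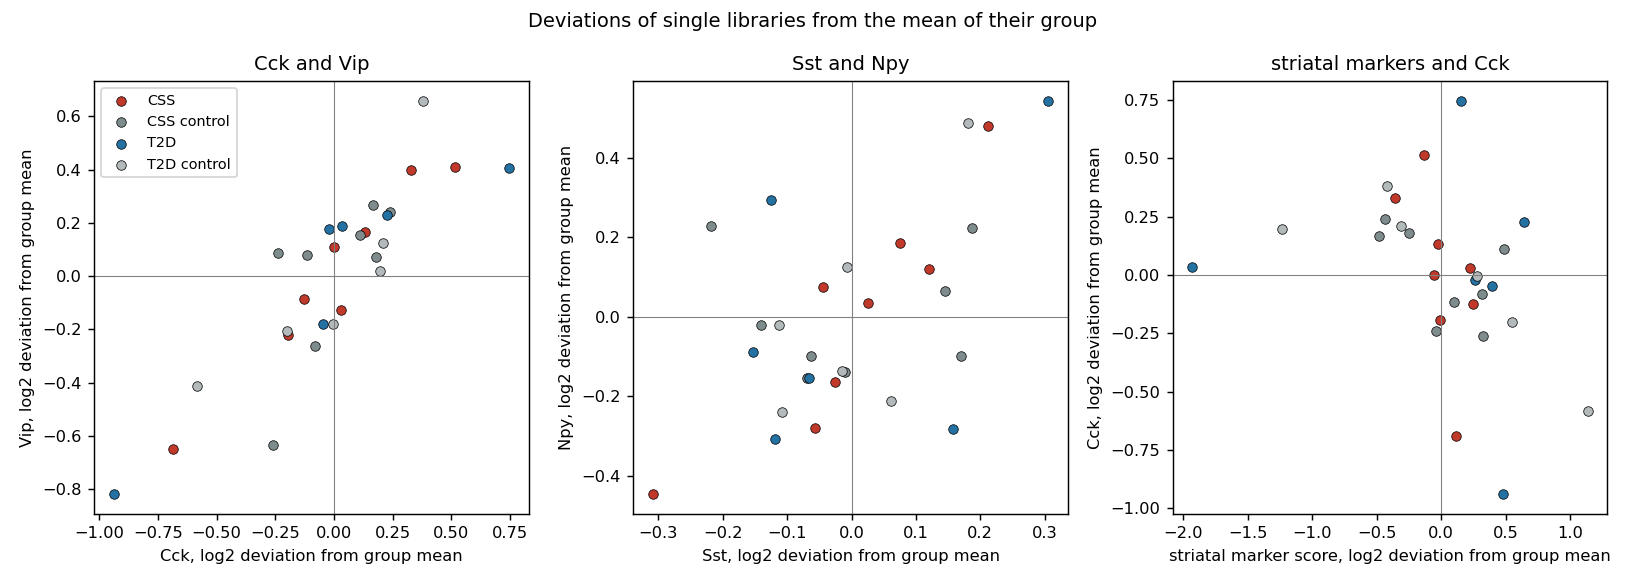
Each point is 1 of 28 libraries, as its log2 deviation from the mean of its group: Cck and Vip (left, r = 0.88), Sst and Npy (middle, r = 0.55) and the score of striatal markers and Cck (right, r = −0.38). The T2D libraries span the widest range of Cck, from −0.94 to 0.75.

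For each gene the 2 genes of most similar pattern were taken from 11979 candidates with a mean of at least 5 CPM, by the same Pearson correlation over 28 libraries. Cck was matched most closely, by Fam131a (r = 0.96) and Vxn (r = 0.95), both above the r of any pair among the 7. Vip was most like Atrnl1 and Herc3 (r = 0.88 for both), and Npy was most like Cyth2, an exchange factor for Arf proteins, and Igfbp4, an IGF-binding protein (r = 0.85 for both). Sst was most like Idh3b, a subunit of mitochondrial isocitrate dehydrogenase (r = 0.82), and Mrfap1 (r = 0.80).

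Crhbp was most like Mtfp1, a mitochondrial fission protein, and Crls1, the cardiolipin synthase (r = 0.80 for both). Crh was most like the nucleosome-binding gene Hmgn1 (r = 0.73) and Ubac1 (r = 0.72), and Cort most like Vps50 (r = 0.71) and the phosphodiesterase gene Pde1a (r = 0.70). These r are the highest of many and are a description. Of these 14 genes 1 passed in CSS, beside 4.52% of all genes. It was Idh3b, which fell by 0.19 ± 0.05 (adjusted p = 0.0329, edgeR), and none passed in T2D, where Vxn was at −0.52 (adjusted p = 0.825).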

How the data were processed

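Gene-level estimated counts were deposited by the authors in a table per cohort. They are not whole and their library totals differ. Salmon 1.1.0, a transcript quantifier, and the build mm10 are named per the submitters' processing notes. The summing of transcripts to genes, any scaling for length and the use of strand are not stated there. Per the labels' protocols, libraries were made from total RNA with the TruSeq Stranded kit after ribosomal RNA depletion. Groups came from the sample titles, which number separate mice.

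Estimated counts were rounded to whole numbers, scaled by TMM and tested per cohort with edgeR 4.0.16 (R 4.3.3; robust quasi-likelihood test, default filter, which removed no gene), with p-values adjusted by Benjamini-Hochberg over every gene of the table and a threshold of 0.05. Where no tool is named, a gene's adjusted p is edgeR's. The difference between cohorts was a contrast over all 28 libraries and 14888 shared genes. Intervals are 95% intervals from the fit's t distribution. CPM values were scaled within each cohort, and per-kilobase levels used the union of exons in GENCODE M21 (GRCm38). No exon of the 7 genes overlaps another gene. Ratios were tested by exact permutation over libraries (12870 splits in CSS, 924 in T2D) and pairs by 100000 permutations within groups. Scores in the fits were means of log2 CPM with a prior count of 2. Scores in the correlations were means of log2(CPM + 0.5) deviations from group means, over genes in both tables. limma 3.58.1 (voom) and DESeq2 1.42.0 were alternatives.

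All 7 genes are named, with the 2 most similar genes of each, the scaling genes Gad1, Gad2 and Slc32a1, and from each pathway list the genes that passed or, where none did, the 2 of smallest p, except 1 gene of the interneuron list that is not reported here. Penk, members of marker lists that passed, and library numbers were named after their values were seen. The 7 genes and the lists were chosen with earlier results of these data known. Depth limits Cort and Crh most.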

Additional observations from a re-analysis of the deposited data

Results flagged for a closer look

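In 28 sets of library values (7 genes in 4 groups) the gap of the highest or lowest library to the rest was compared with the range of its group, a check that chance meets in about 1 of 20 groups. It marked 2 libraries, both among the T2D controls. Control 4 had 5.13 CPM of Cort, above the other 5 at 2.49 to 3.33 CPM. This library was also the highest control for the other 6 genes, at 44.8 CPM of Vip and 181.6 CPM of Cck. Control 2 had 1.95 CPM of Crh, below the other 5 at 3.14 to 3.67 CPM. Without control 4 the log2 fold change of Cort in T2D was −0.08, beside −0.25 with it. Likewise Npy was at −0.07, beside −0.19, Vip at −0.22, beside −0.38, and Crhbp at −0.05, beside −0.14.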

How the results depend on the processing

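Sst and Npy were both called in CSS, and no member in T2D or between the cohorts, with DESeq2 size factors or no scaling, without robust estimation, with no filter or one of at least 5 mean CPM, with limma-voom, with DESeq2, with a replicate block and with the RNA integrity number as a covariate. Over all genes in CSS these settings called 478 (replicate block) to 1313 (DESeq2), beside 683 in the main fit. With the striatal and thalamic scores 1 member was called in CSS, beside 255 of all genes. With the title code number 0 members were called, beside 2 of all genes. Leaving out 1 library gave 0 to 2 members called in CSS, 0 to 0 in T2D and 0 to 0 for the difference between them, and 0 to 1 of the 14 ratios, where Npy in CSS passed without CSS 2 (−0.59, adjusted p = 0.0326, exact permutation test). Of all genes, 222 to 794 were called in CSS with 1 library left out. With Gad1 alone or the interneuron list as the scale 1 ratio passed. Of the 21 pairs, 2 passed in the T2D cohort alone and 3 with the marker scores removed.

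Signs changed only for values that did not pass. With the marker scores Crhbp was at 0.11 in T2D, and the difference between cohorts was −0.27 for Crhbp and −0.0904 for Cck. With the integrity number that difference was 0.0063 for Cort and −0.12 for Crhbp. Leaving out 1 library gave −0.0097 to 0.14 for Vip in CSS, and for the difference −0.21 to 0.0657 for Cort and −0.0346 to 0.17 for Crhbp. The same gave ratios in CSS of −0.0806 to 0.19 for Vip, −0.18 to 0.0037 for Crh, −0.17 to 0.0328 for Crhbp and −0.26 to 0.0050 for Cck, and in T2D of −0.20 to 0.0336 for Crh. With Gad1 alone the ratio of Vip in CSS was −0.0125, and with the interneuron list that of Crh in T2D was 0.0518. The r of Npy and Crh was −0.0638 in the CSS cohort, and that of Crh and Crhbp 0.24 with the scores removed. The cause was not tested.

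The replicate numbers showed no clear sign of pairing the samples, though a check by correlation cannot exclude a pairing. Libraries of the same number had deviations that correlated between −0.18 and 0.35 in the CSS cohort (2 of 8 best with their own number) and between −0.00 and 0.18 in the T2D cohort (1 of 6). With the replicate block 478 genes were called in CSS, beside 683, and Sst was at an adjusted p of 0.0352 and Npy at 0.0289 (edgeR). In T2D 0 genes were called with the block, and for the difference between cohorts 32 genes, beside 12.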
